A study of Mus musculus with 4 samples.

Results

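The genes that write, copy and erase DNA methylation were followed through a knockdown and rescue of Ythdf2 in mouse embryonic stem cells. The 9 genes were taken by name from their known roles, with no measured value in the rule, and all 9 were present among the 50559 genes of the count table. They are the maintenance pair Dnmt1 and Uhrf1, the de novo group Dnmt3a, Dnmt3b and Dnmt3l, the dioxygenases Tet1, Tet2 and Tet3, and the glycosylase gene Tdg. All 9 were among the 18586 genes that averaged 10 or more counts per library, which are called tested genes here, and among the 10817 that averaged 200 or more, called well counted.

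RNA-seq was made from E14 cells, a mouse embryonic stem cell line, in 4 groups of 1 library each. The shscr_EV library came from cells with a scrambled hairpin and an empty vector. The other 3 all carried the hairpin against Ythdf2, which encodes a reader protein that binds N6-methyladenosine (m6A) on RNA and promotes decay of the bound transcripts. In shYthdf2_EV the hairpin was paired with the empty vector, in shYthdf2_WT with wild-type YTHDF2 and in shYthdf2_Mut with a YTHDF2 mutated for m6A binding (its GEO title is misspelt shYtdhf2_Mut). According to the study's methods the hairpins were delivered by lentivirus with puromycin selection, and cells were grown on gelatin with serum replacement and LIF. Whether a line was a pool or 1 clone is not given in the sources used here. With 1 library per group no difference between groups has a replicate check, so no p-value is given. Ratios below compare libraries, and their 95% intervals cover counting error only, since amplified reads are not independent molecules.

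In vertebrates, cytosine methylation sits mainly at CpG dinucleotides. DNMT1 copies the pattern onto the new strand after replication, guided by UHRF1, which binds hemimethylated CpGs. DNMT3A and DNMT3B lay down new marks, and DNMT3L, which has no catalytic activity, stimulates them. TET enzymes oxidise 5-methylcytosine, and TDG excises the later oxidation products so that base excision repair can restore cytosine. Mouse embryonic stem cells are known for high Dnmt3l, Tet1 and Tet2 and for low Tet3, and they tolerate the loss of DNA methylation while they self-renew.

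The start regions of these genes themselves differ widely in CpG content. RefSeq (GRCm38.p6) gave 16 start windows for the 9 genes among 32851 for all genes, and the 250 bases upstream of each start were searched for the letters CG. The windows of all genes held a median of 6 CpGs. The Tet2 window held 51, more than 99.9% of all windows. The richest windows of Dnmt3a (40), Uhrf1 (30), Dnmt1 (26), Dnmt3b (21), Tdg (19), Tet3 (17) and Tet1 (15) came next, and 27.3% of all windows held at least 15. By richest window Dnmt3l stood at the other end, with 5, 4 and 3 CpGs upstream of its 3 starts. The window with the fewest CpGs belonged to another start of Dnmt1, with 2. The extremes by richest window, Tet2 and Dnmt3l, are shown for their ratios. Dnmt3l had the highest ratio of shYthdf2_EV to shscr_EV among the 9 genes and Tet2 the widest ratio of shYthdf2_Mut to shYthdf2_WT. Tet1 is shown between them as the most abundant TET gene. Sequences run 5′ to 3′ on the strand of the gene and end at the base before the start, and capitals mark each CpG.
Tet2, chr3:133544391-133544640, minus strand: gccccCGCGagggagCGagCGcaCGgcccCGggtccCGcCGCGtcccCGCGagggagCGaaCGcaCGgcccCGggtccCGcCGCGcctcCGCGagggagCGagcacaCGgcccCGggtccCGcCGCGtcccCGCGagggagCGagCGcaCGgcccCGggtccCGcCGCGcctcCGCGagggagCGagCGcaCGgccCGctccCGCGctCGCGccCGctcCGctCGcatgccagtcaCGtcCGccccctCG
Tet1, chr10:62887325-62887574, minus strand: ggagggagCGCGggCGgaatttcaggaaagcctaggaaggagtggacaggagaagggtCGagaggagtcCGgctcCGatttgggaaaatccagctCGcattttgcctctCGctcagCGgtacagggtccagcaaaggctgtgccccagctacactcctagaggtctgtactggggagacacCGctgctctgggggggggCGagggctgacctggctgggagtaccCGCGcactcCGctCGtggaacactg
Dnmt3l, chr10:78042037-78042286, plus strand: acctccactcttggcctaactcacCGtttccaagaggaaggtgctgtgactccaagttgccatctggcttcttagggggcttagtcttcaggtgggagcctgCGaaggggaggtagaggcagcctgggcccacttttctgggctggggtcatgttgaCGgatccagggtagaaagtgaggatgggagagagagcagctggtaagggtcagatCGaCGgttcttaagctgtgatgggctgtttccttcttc
The Tet2 window is largely a run of repeated CpG-dense units, the Tet1 window has its CpGs spaced along it, and the Dnmt3l window has long CpG-free stretches. No methylation was measured in these libraries, so the letters describe the substrate and not its state.

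The libraries held between 31533129 and 35742335 reads counted in genes. Ythdf2 had 2806 reads in shscr_EV, 662 in shYthdf2_EV, 7661 in shYthdf2_WT and 6925 in shYthdf2_Mut, low with the hairpin alone and high in both rescue libraries. The 8 embryonic stem cell markers summed to 4452, 4573, 4554 and 4593 scaled CPM (counts per 1000000) in the same order. Markers of 2-cell-like cells, a rare state in such cultures, summed to 91.2, 322, 106 and 278 CPM (7 of the listed genes were tested, and Gm6763 was at 0 in every library). Primitive endoderm markers summed to 16.2, 22.7, 12.5 and 23.9 CPM, primed pluripotency markers to 26.4, 36.5, 37.8 and 33.3 CPM (T at 0), trophectoderm markers to 27.8, 27.1, 28.1 and 35.0 CPM, and fibroblast markers to 40.1, 22.4, 33.6 and 23.2 CPM (Lum at 0). Sums can hide genes that went opposite ways. In shYthdf2_EV against shscr_EV 2 tested trophectoderm genes were higher and 4 lower, and 2 fibroblast genes were higher and 2 lower. Eomes held 21.4 of the 27.8 trophectoderm CPM in shscr_EV. Sox3, in the primed list, went from 1.71 CPM in shscr_EV to 8.01 in shYthdf2_EV. The part of these cell types in the results below was not tested, and in bulk RNA fewer cells of a type and less RNA per cell cannot be told apart. Genes of chromosome 12, which carries Dnmt3a, and genes of low GC content, which include Tet1 and Tet2, were shifted as groups in some libraries. Those values stand beside the genes they touch.

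**Figure D1:**
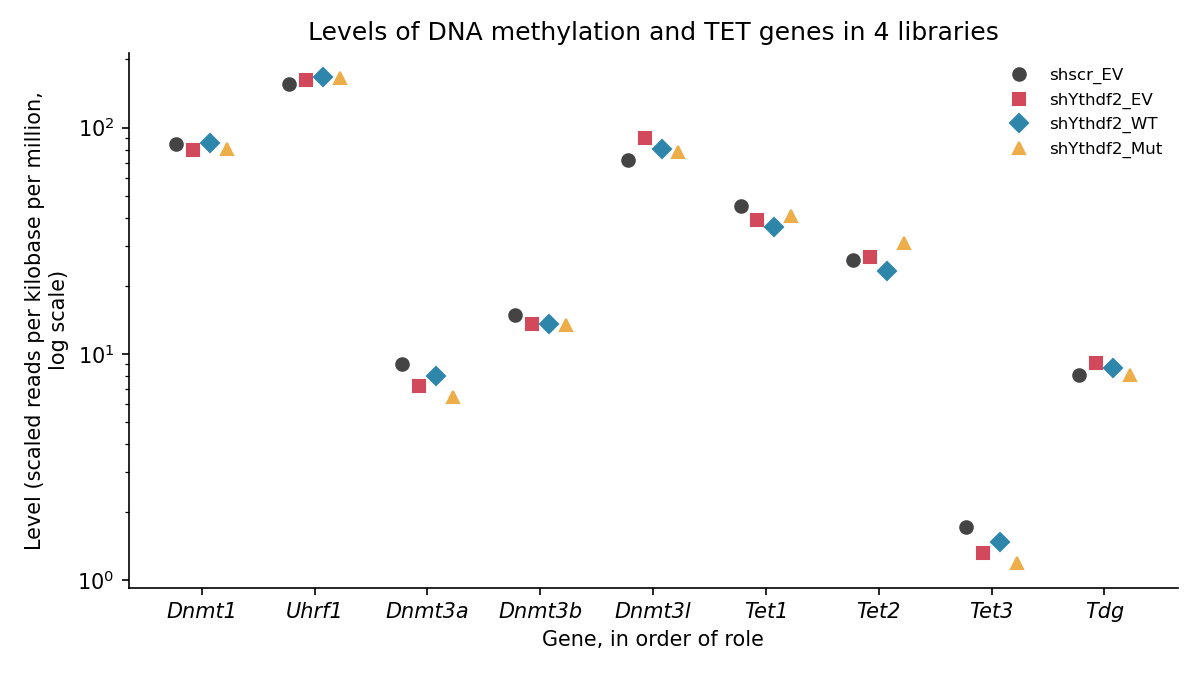
Level of each gene in each of the 4 libraries, in scaled RPKM on a log axis, with 1 point per library. Uhrf1 sits highest at 156 to 167 and Tet3 lowest at 1.19 to 1.73. The levels of Dnmt1 and Dnmt3l overlap over the libraries, as do those of Tdg and Dnmt3a, and the other genes lie apart.

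Levels were compared between genes as RPKM (scaled reads per kilobase of merged exons and per 1000000 reads). Uhrf1 was the highest, with a mean of 163 RPKM over the 4 libraries. Dnmt1 (82.4) and Dnmt3l (79.9) followed, and their order changed between libraries: Dnmt1 was above Dnmt3l in shscr_EV (84.7 against 71.6 RPKM) and below it in shYthdf2_EV (79.6 against 89.6 RPKM). Tet1 (40.4), Tet2 (26.8) and Dnmt3b (13.8) came next in that order in every library. Tdg (8.50 RPKM) and Dnmt3a (7.70 RPKM) overlapped, since Dnmt3a was above Tdg in shscr_EV (9.06 against 8.09 RPKM) and below it in the other 3. Tet3 was lowest with 1.43 RPKM. The place of Dnmt3a depends on the length used, because the merged exons of its entry span 24591 bases and its longest GENCODE transcript 9685. The plot of levels by library shows these distances on a log axis.

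None of the 9 genes differed by 1.5-fold in any of the 6 comparisons between libraries. The widest ratio was that of Tet3 in shYthdf2_Mut against shscr_EV, a log2 ratio of -0.54 or 1.45-fold. Among all tested genes, 12.8% differed by 2-fold or more and 26.7% by 1.5-fold or more in shYthdf2_EV against shscr_EV, and 10.2% of well-counted genes passed 1.5-fold. The corresponding shares were 10.7%, 23.3% and 7.65% in shYthdf2_WT against shYthdf2_EV, and 6.03%, 15.3% and 1.83% in shYthdf2_Mut against shYthdf2_EV. They were 11.6%, 27.1% and 12.0% in shYthdf2_Mut against shYthdf2_WT. Against shscr_EV they were 6.89%, 16.4% and 2.02% for shYthdf2_WT and 12.2%, 25.7% and 9.43% for shYthdf2_Mut. Against backgrounds of at most 12.0% of well-counted genes, 0 of 9 is not a result about these genes. Their median log2 ratio was -0.09 for shYthdf2_EV against shscr_EV, with 4 genes higher and 5 lower, beside a median of -0.00 over all tested genes. The shYthdf2 libraries share the shscr_EV library when set against it, so their ratios to it are not separate evidence.

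The maintenance pair varied least. Dnmt1 (chromosome 9, 20818501-20871184, minus strand, mm39, as are all gene positions here) was at 536 scaled CPM in shscr_EV, 503 in shYthdf2_EV, 539 in shYthdf2_WT and 506 in shYthdf2_Mut. Uhrf1 (chromosome 17, 56610337-56630486, plus strand) was at 580, 606, 620 and 617 scaled CPM in the same order. Dnmt1 was thus slightly lower in shYthdf2_EV and shYthdf2_Mut than in the other 2 libraries, and Uhrf1 was lowest in shscr_EV. GC content and exon length corrected for, the log2 ratio of Dnmt1 in shYthdf2_WT went from 0.10 to 0.02 against shYthdf2_EV. Against shscr_EV it went from 0.01 to -0.04. The ratios of shYthdf2_EV to shscr_EV were -0.09 (log2, 95% interval -0.13 to -0.05) for Dnmt1 and 0.06 (0.02 to 0.10) for Uhrf1. The standard deviation (SD) of the log2 level over the 4 libraries was 0.044 for Uhrf1, and only 3.07% of well-counted genes had a smaller one. For Dnmt1 it was 0.053, with 4.80% smaller, beside a median of 0.162 over well-counted genes. Highly counted genes carry less counting error, and among the 468 genes with a mean count within 2-fold of that of Uhrf1, 7.91% had a smaller SD. Among the 583 such genes for Dnmt1 the share was 9.95%. Both were thus steadier than at least 90% of genes of like depth in these 4 libraries.

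The de novo group split by gene. Dnmt3l (chromosome 10, 77878121-77899456, plus strand), the catalytically inactive stimulator, was at 191 scaled CPM in shscr_EV, 239 in shYthdf2_EV, 214 in shYthdf2_WT and 209 in shYthdf2_Mut. It was highest in shYthdf2_EV and above shscr_EV in all 3 hairpin libraries. The log2 ratio of shYthdf2_EV to shscr_EV was 0.32 (0.26 to 0.39), or 125% of the shscr_EV level, and 31.1% of well-counted genes had a wider ratio in that comparison. Both libraries with added YTHDF2 were lower than shYthdf2_EV, by log2 ratios of -0.16 (-0.23 to -0.10) with the wild-type protein and -0.20 (-0.26 to -0.13) with the mutant. The mutant and wild-type libraries differed by -0.03 with an interval that held 0. With GC content and exon length corrected for, the ratios to shYthdf2_EV became -0.26 (wild type) and -0.13 (mutant). The ratio of shYthdf2_Mut to shYthdf2_WT became 0.13 and so changed sign. The 5′ end of Dnmt3l overlaps Aire on the other strand, and reads were counted without strand, so reads over both genes were dropped. Aire had 920, 756, 1242 and 706 reads in the order above, and the part of the overlap in the Dnmt3l counts was not tested.

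Dnmt3a (chromosome 12, 3851559-3964443, plus strand), a de novo methyltransferase, was at 223 scaled CPM in shscr_EV, 178 in shYthdf2_EV, 197 in shYthdf2_WT and 159 in shYthdf2_Mut. It was highest in shscr_EV and lowest in shYthdf2_Mut, at 71.5% of the shscr_EV level. The log2 ratios to shscr_EV were -0.32 (-0.39 to -0.25) in shYthdf2_EV, -0.18 (-0.25 to -0.11) in shYthdf2_WT and -0.48 (-0.56 to -0.41) in shYthdf2_Mut. Chromosome 12 as a whole was lower too. The median of 417 other well-counted genes on that chromosome was -0.29, -0.10 and -0.26 in these comparisons. The medians of the other 18 autosomes lay between -0.04 and 0.04 for shYthdf2_EV. They lay between -0.07 and 0.08 for shYthdf2_WT and between -0.05 and 0.05 for shYthdf2_Mut. Measured from the chromosome median, Dnmt3a was at -0.03 in shYthdf2_EV, -0.08 in shYthdf2_WT and -0.22 in shYthdf2_Mut. In shYthdf2_EV 46.3% of the chromosome 12 genes had a lower ratio than Dnmt3a, so its level there was that of a typical gene of its chromosome. In shYthdf2_Mut 21.8% had a lower ratio. The difference between shYthdf2_WT and shYthdf2_EV, a log2 ratio of 0.14 (0.07 to 0.21), became -0.05 from the chromosome median of 0.19. Between shYthdf2_Mut and shYthdf2_EV Dnmt3a was at -0.16 (-0.24 to -0.09) beside a chromosome median of 0.03. Whether the number of copies of chromosome 12 differed between the lines was not tested.

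**Figure D2:**
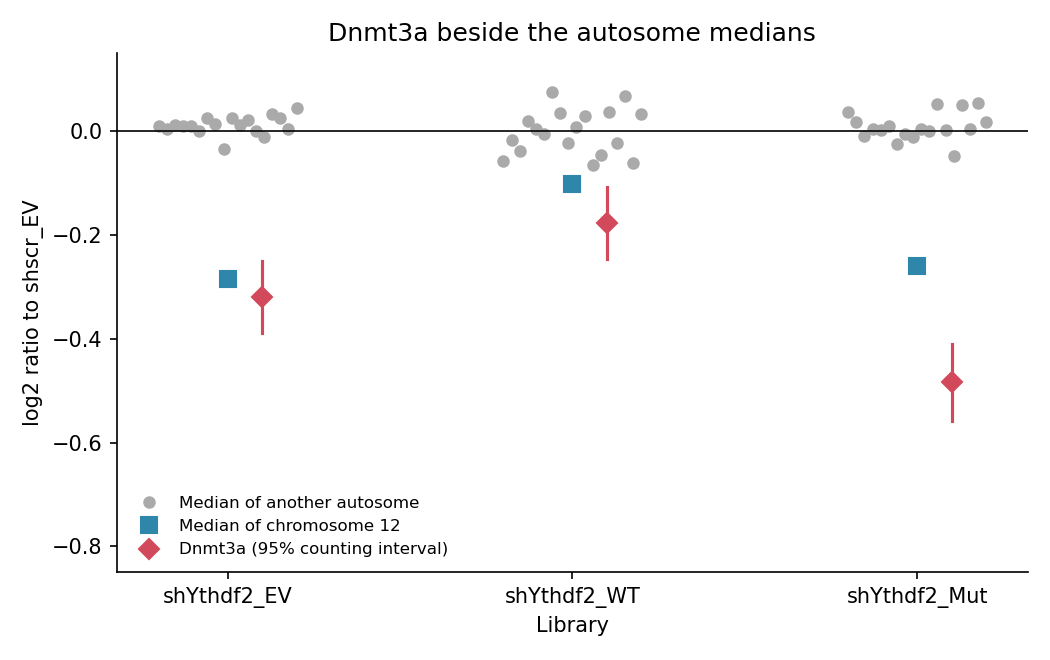
Ratio of each shYthdf2 library to shscr_EV, on a log2 scale, for Dnmt3a (diamonds, with 95% counting intervals), for the median of well-counted genes of chromosome 12 (squares) and for the medians of the other 18 autosomes (grey points). Dnmt3a lies at -0.32, -0.18 and -0.48 and the chromosome 12 median at -0.29, -0.10 and -0.26, below every other autosome in each library.

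Dnmt3b (chromosome 2, 153491332-153529650, plus strand), the other catalytic de novo enzyme, was at 85.9 scaled CPM in shscr_EV, 78.5 in shYthdf2_EV, 78.7 in shYthdf2_WT and 77.4 in shYthdf2_Mut. The 3 hairpin libraries were nearly level with each other and at 90.2% to 91.6% of shscr_EV. The log2 ratio of shYthdf2_EV to shscr_EV was -0.13 (-0.24 to -0.02), and the libraries with added YTHDF2 were at 0.00 (wild type) and -0.02 (mutant) from shYthdf2_EV, with intervals that held 0.

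The makeup of the de novo group shifted with these levels. Of the reads of Dnmt3a, Dnmt3b and Dnmt3l together, Dnmt3l took 38.3% in shscr_EV (95% Clopper-Pearson interval 37.2 to 39.3), 48.2% in shYthdf2_EV (47.2 to 49.3), 43.7% in shYthdf2_WT (42.6 to 44.8) and 46.9% in shYthdf2_Mut (45.7 to 48.1). Dnmt3a took 44.6%, 35.9%, 40.2% and 35.7% in the same order. The largest contributor of reads was thus Dnmt3a in shscr_EV and Dnmt3l in the 3 hairpin libraries. Per kilobase of merged exons, Dnmt3l took the most in every library, from 75.0% in shscr_EV to 81.1% in shYthdf2_EV. Dnmt3a, a term of both shares, lay -0.03 from the chromosome 12 median in shYthdf2_EV and -0.22 from it in shYthdf2_Mut, each against shscr_EV.

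Tet1 (chromosome 10, 62640349-62723242, minus strand), the main TET gene of embryonic stem cells, was at 832 scaled CPM in shscr_EV, 720 in shYthdf2_EV, 670 in shYthdf2_WT and 749 in shYthdf2_Mut. It was highest in shscr_EV, and the 3 hairpin libraries lay at 80.5% to 90.0% of that level. The log2 ratio of shYthdf2_EV to shscr_EV was -0.21 (-0.24 to -0.17), and that of shYthdf2_WT was -0.31 (-0.35 to -0.28). As counted, Tet1 was lower in shYthdf2_WT than in shYthdf2_EV, with a log2 ratio of -0.10 (-0.14 to -0.07). With GC content and exon length corrected for, that ratio became 0.11. The ratio of shYthdf2_Mut went from 0.06 to -0.02 against shYthdf2_EV and from 0.16 to -0.14 against shYthdf2_WT. The part of base composition in the order of the hairpin libraries was not tested. The longest Tet1 transcript has 43.7% GC, the lowest of the 9 genes, and ratios involving shYthdf2_WT varied with GC content across 10512 well-counted genes (Spearman correlation 0.43 against shYthdf2_EV and -0.50 for shYthdf2_Mut against shYthdf2_WT, across genes, which are not independent replicates). The 973 genes within 1 percentage point of the GC content of Tet1 had a median log2 ratio of -0.10 between shYthdf2_WT and shYthdf2_EV, the same as Tet1. Their median was 0.16 between shYthdf2_Mut and shYthdf2_WT, again the same as Tet1. In shYthdf2_EV against shscr_EV the correlation was -0.02, the median of those genes -0.02 and Tet1 -0.21, which is -0.19 from that median. Of those genes, 23.3% had a lower ratio than Tet1.

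Tet2 (chromosome 3, 133169438-133250882, minus strand) was at 254 scaled CPM in shscr_EV, 260 in shYthdf2_EV, 226 in shYthdf2_WT and 302 in shYthdf2_Mut. It was lowest with the wild-type protein and highest with the mutant, while the libraries with the empty vector lay between and differed by 0.03 (-0.03 to 0.09). The log2 ratio of shYthdf2_Mut to shYthdf2_WT was 0.42 (0.36 to 0.48), the widest between those libraries among the 9 genes, and 24.1% of all well-counted genes had a wider one. Relative to shYthdf2_EV the wild-type library was at -0.20 (-0.27 to -0.14) and the mutant library at 0.22 (0.16 to 0.28), which became -0.08 and 0.14 with GC content and exon length corrected for. The longest Tet2 transcript has 45.4% GC, and 1042 genes within 1 percentage point of it had a median of 0.13 between shYthdf2_Mut and shYthdf2_WT. Of these, 12.0% had a higher ratio than Tet2. With the same correction the ratio of shYthdf2_Mut to shYthdf2_WT was 0.20, so the direction held at a smaller size.

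Tet3 (chromosome 6, 83339355-83434190, minus strand), the TET gene of the oocyte and of differentiating cells, was counted with 662, 576, 589 and 459 reads in shscr_EV, shYthdf2_EV, shYthdf2_WT and shYthdf2_Mut. On the scaled CPM scale these were 20.9, 16.0, 17.9 and 14.4, highest in shscr_EV and lowest in shYthdf2_Mut. The log2 ratio of shYthdf2_EV to shscr_EV was -0.39 (-0.62 to -0.15) and that of shYthdf2_Mut to shscr_EV -0.54 (-0.78 to -0.29). The intervals of shYthdf2_WT and of shYthdf2_Mut against shYthdf2_EV both held 0, at 0.16 (-0.08 to 0.40) and -0.15 (-0.40 to 0.11). Tet3 had the widest SD of the log2 level, 0.230, and among the 4155 genes with a mean count within 2-fold of its own 63.0% had a smaller one. The genes whose centred log2 levels lay closest to those of Tet3 over the 4 libraries, out of 10816 well-counted genes, were AF357359 (chromosome 12, Euclidean distance 0.0174), Aass (chromosome 6, 0.0216) and Acsl5 (chromosome 19, 0.0225). With 4 libraries many genes share an order by necessity, so these are a description.

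**Figure D3:**
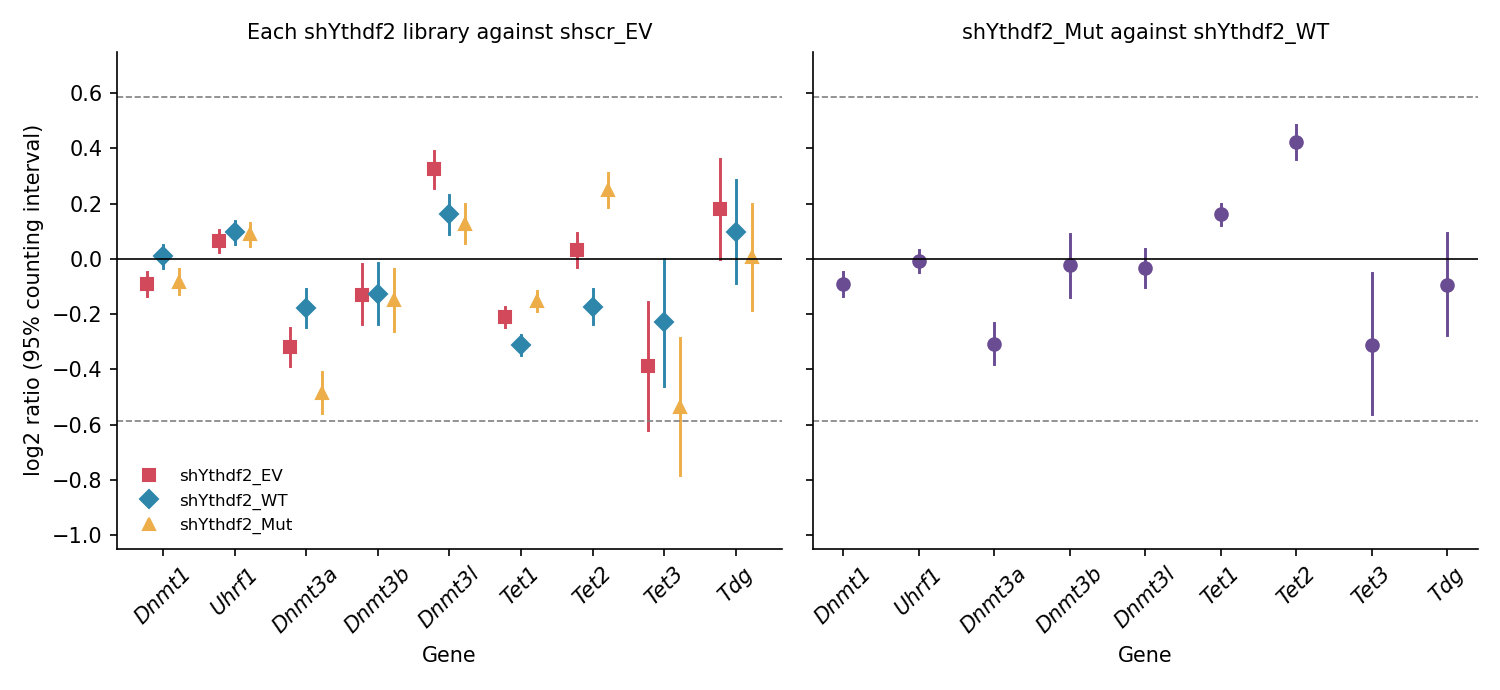
Log2 ratios of the 9 genes with 95% counting intervals, on the left for each shYthdf2 library against shscr_EV and on the right for shYthdf2_Mut against shYthdf2_WT, where dashed lines mark 1.5-fold. No point passes a dashed line, and Tet2 has the widest ratio on the right at 0.42. In all 3 hairpin libraries Dnmt3l, Uhrf1 and Tdg lie above 0, and Dnmt3a, Dnmt3b, Tet1 and Tet3 below 0.

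Within the TET group the balance moved from Tet1 towards Tet2. Of the reads of the 3 genes, Tet2 took 23.0% in shscr_EV (95% Clopper-Pearson interval 22.3 to 23.6), 26.1% in shYthdf2_EV (25.5 to 26.8), 24.7% in shYthdf2_WT (24.0 to 25.4) and 28.4% in shYthdf2_Mut (27.7 to 29.1). Tet1 took 75.1%, 72.3%, 73.3% and 70.3%, and Tet3 between 1.35% and 1.96%. Genes of the GC content of Tet1 and of Tet2 had medians close to each other, as given above. Per kilobase of merged exons Tet2 took 35.7% in shscr_EV, 39.8% in shYthdf2_EV, 37.9% in shYthdf2_WT and 42.6% in shYthdf2_Mut. The libraries with little or mutant YTHDF2 thus had the higher Tet2 shares on both scales, by amounts outside the counting intervals and with no replicate to set them against.

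Tdg (chromosome 10, 82465649-82486633, plus strand), the glycosylase acting after the TET enzymes, was counted with 906, 1167, 1010 and 915 reads in shscr_EV, shYthdf2_EV, shYthdf2_WT and shYthdf2_Mut. These were 28.7, 32.5, 30.7 and 28.8 scaled CPM, highest in shYthdf2_EV and level in shscr_EV and shYthdf2_Mut. The log2 ratio of shYthdf2_EV to shscr_EV was 0.18 (0.00 to 0.36). Every other comparison of Tdg had an interval that held 0, and its SD of 0.085 was below the median of 0.165 among the 4687 genes within 2-fold of its mean count.

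**Figure D4:**
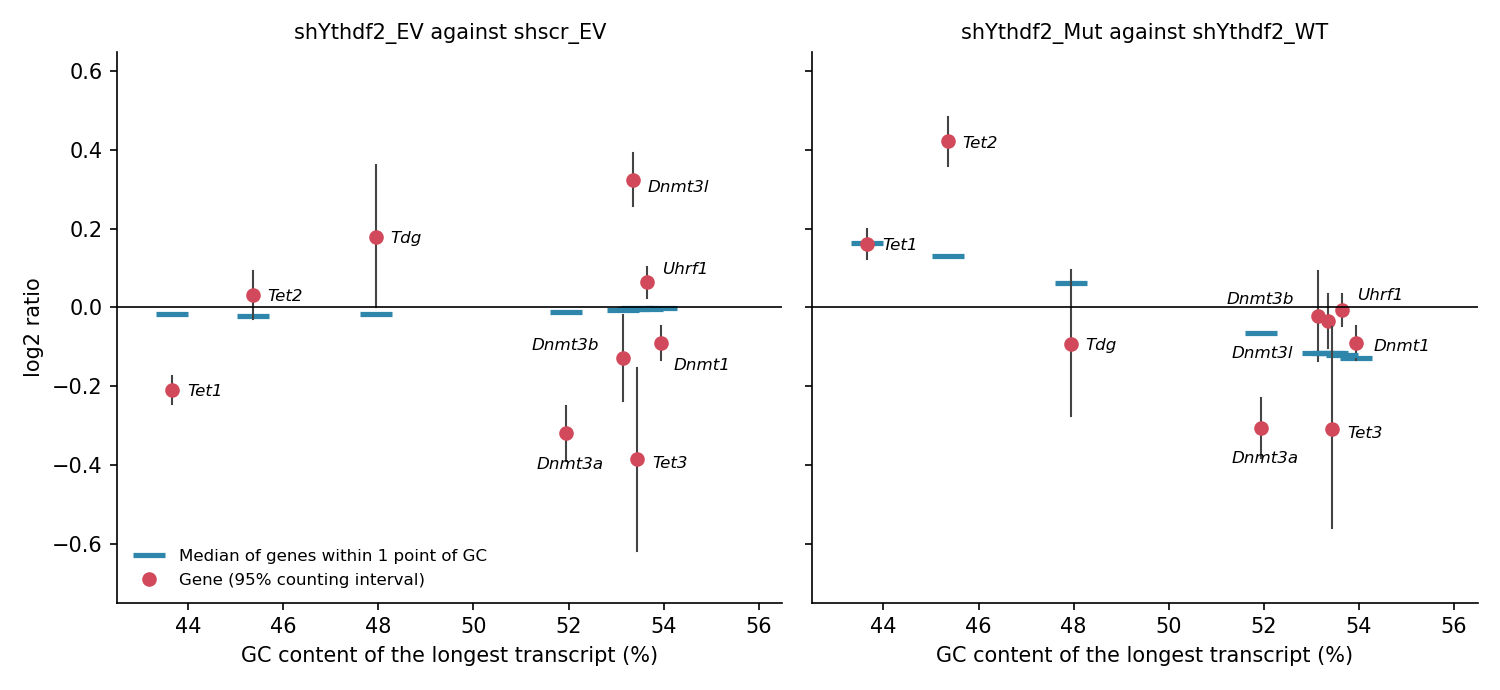
Log2 ratio of each of the 9 genes (points, with 95% counting intervals) against the GC content of its longest transcript in percent, with bars at the median of well-counted genes within 1 percentage point. The bars stay near 0 on the left and run from 0.16 at the GC content of Tet1 to below 0 at that of Dnmt1 on the right, where Tet1 lies on its bar and Tet2 above it.

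The plot of ratios against GC content sets these values beside genes of like composition. In shYthdf2_Mut against shYthdf2_WT, Dnmt3a was at -0.31 (-0.38 to -0.23) where the genes of its GC content had a median of -0.06 and those of chromosome 12 a median of -0.17, which leaves -0.14 from the chromosome median. Tet3 was at -0.31 (-0.56 to -0.05) where the genes of its GC content had a median of -0.12. Dnmt1, at -0.09 (-0.13 to -0.05) in this comparison, was at -0.01 once GC content and exon length were corrected for.

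Genes that work with these enzymes were described from lists of 59 other genes, 56 of them tested. In shYthdf2_EV against shscr_EV 1 was at least 1.5-fold higher and 2 were at least 1.5-fold lower, beside 26.7% of all tested and 10.2% of well-counted genes. Their median log2 ratio was -0.06. The numbers higher and lower by 1.5-fold were 3 and 1 in shYthdf2_WT against shYthdf2_EV, 0 and 0 in shYthdf2_Mut against shYthdf2_EV, and 2 and 4 in shYthdf2_Mut against shYthdf2_WT. Against shscr_EV they were 2 and 0 for shYthdf2_WT and 2 and 5 for shYthdf2_Mut. Each of these counts stands beside the shares of 1.5-fold differences given above for the same comparison. Of the 10 maintenance partners, the 8 factors that direct or oppose de novo methylation, the 8 methyl-CpG binding proteins and the 6 TET partners, 0 passed 1.5-fold in shYthdf2_EV against shscr_EV, which against a background of 10.2% of well-counted genes is not a result about lists of this size. In other comparisons Dppa2, Dppa3, Zbtb33 and Zbtb4 of these lists passed it. Gadd45b, a stress-induced gene linked to demethylation through DNA repair, had 1526 reads in shscr_EV, 1051 in shYthdf2_EV, 1918 in shYthdf2_WT and 862 in shYthdf2_Mut. It was high in shscr_EV and shYthdf2_WT and low in the other 2, with log2 ratios of -0.72 for shYthdf2_EV against shscr_EV, 0.99 for shYthdf2_WT against shYthdf2_EV and -1.10 for shYthdf2_Mut against shYthdf2_WT.

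The following genes of these lists were chosen after their values were seen. Gnmt, which consumes the methyl donor S-adenosylmethionine, was also high in shscr_EV and shYthdf2_WT at low depth, with 42, 19, 69 and 19 reads. Gadd45g went the other way from Gadd45b in shYthdf2_EV, with 46, 103, 75 and 77 reads. Dppa2, whose product keeps certain promoters free of methylation, had 6405, 10480, 5732 and 9482 reads. It was high in the libraries with little or mutant YTHDF2, with log2 ratios of 0.52 for shYthdf2_EV against shscr_EV and 0.78 for shYthdf2_Mut against shYthdf2_WT. The longest Dppa2 transcript has 43.6% GC, and genes near the GC content of Tet1 had a median of 0.16 in the latter comparison. Those of Gadd45b and Gnmt have 56.9% and 57.5% GC. The part of GC content in the ratios of these genes was not tested. The summed 2-cell-like markers given above had the same high and low libraries as Dppa2.

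Copies of GGACT, a form of the m6A consensus, were counted on the sense strand of the longest GENCODE transcript of each gene. Dnmt3a held 15, Tet1 13, Tet3 10, Tet2 9, Tdg 6, Uhrf1 5, Dnmt3b 4, Dnmt1 3 and Dnmt3l 1. Per kilobase these ran from 0.511 in Dnmt1 to 1.71 in Tdg, around a median of 1.02 over 16726 tested genes, of which 88.5% held at least 1 copy. Dnmt3a held 1.55 per kilobase and Dnmt3l 0.549. The part of motif content in the ratios was not tested. No m6A was measured in these libraries, and a match of letters is not a methylated site.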

How the data were processed

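RNA-seq of 4 mouse E14 libraries, 1 per group and grouped by the GEO labels, was analysed from the deposited table of raw read counts per gene. Per the file headers, featureCounts 2.0.3 assigned reads to mm39 RefSeq exons, without strand, each mate of a pair separately and multi-mapped reads left out. The submitters' notes also name fastp 0.19.4, HISAT2 2.2.1, DESeq2 1.40.2 and the mm10 build, which differs from the header. The labels describe strand-marking libraries. Totals ran from 31533129 to 35742335 counts, where a floor of 3 counts is 0.0835 to 0.0949 CPM.

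TMM factors (edgeR 4.0.16, R 4.3.3) came from genes averaging 10 or more counts. Log2 ratios carried 0.5 added counts, in proportion to library size. The 95% intervals were Clopper-Pearson on read pairs (reads divided by 2) and cover counting error only. Intervals were tested on simulated data. No differential test was run, since each group had 1 library, although the study's methods state replicates. GC content and motif counts were read from GENCODE vM21, taking the longest transcript under each symbol, found for 16726 tested genes, and start windows from RefSeq (GRCm38.p6), matched by symbol. GENCODE and RefSeq start windows are of another build than the counts, so they were used for sequence only.

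The named genes were the 9 genes in all 6 comparisons, Ythdf2, genes of each list averaging 200 or more counts with a 1.5-fold ratio of shYthdf2_EV to shscr_EV, and the 3 genes closest in pattern to the most variable of the 9. The genes and lists were chosen with earlier results of these data known. Alternatives were other scalings (total counts, upper quartile, DESeq2 1.42.0 size factors), filters, prior count, intervals on reads, correction for GC content and exon length, and subtraction of the chromosome median.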

Additional observations from a re-analysis of the deposited data

How the results depend on the processing

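Total counts, upper-quartile and DESeq2 size factor scaling moved a log2 ratio of the 9 genes by at most 0.05. Of 486 alternative ratios, 17 changed sign. In 13 of them the interval of the ratio as reported held 0 and its size was at most 0.034: 2 under DESeq2 size factors (Dnmt3b, Uhrf1), 1 under upper-quartile factors (Tdg), and the rest under correction for GC content and exon length or subtraction of the chromosome median. In the other 4 the interval lay off 0. Correction for GC content and exon length turned Tet1 to 0.11 in shYthdf2_WT against shYthdf2_EV, -0.023 in shYthdf2_Mut against shYthdf2_EV and -0.14 in shYthdf2_Mut against shYthdf2_WT, and subtraction of the chromosome median turned Dnmt3a to -0.051 in shYthdf2_WT against shYthdf2_EV. The median of the 9 genes in shYthdf2_WT against shscr_EV went from -0.13 to -0.039 under the GC and length correction. In the order shYthdf2_EV against shscr_EV, shYthdf2_WT and shYthdf2_Mut against shYthdf2_EV, shYthdf2_Mut against shYthdf2_WT, and shYthdf2_WT and shYthdf2_Mut against shscr_EV, 2380, 1995, 1120, 2157, 1281 and 2275 tested genes passed 2-fold. With a mean count of at least 1 these were 7627, 6996, 5823, 7070, 6016 and 7199, with at least 200 they were 275, 186, 14, 211, 17 and 248, and at 1.5-fold they were 4960, 4330, 2841, 5028, 3053 and 4768. A prior count of 5 gave 658 in shYthdf2_Mut against shYthdf2_EV and 742 in shYthdf2_WT against shscr_EV. Family shares per kilobase of the longest GENCODE transcript, chosen after seeing the data, put Dnmt3a at 15.6% and Dnmt3b at 13.4% in shscr_EV, against 9.48% and 15.5% with merged exons. No paired analysis was possible because each group had 1 library. For the same reason no difference could be set against the spread between replicates. The depth behind Tet3 (459 to 662 reads) leaves wide intervals, such as -0.08 to 0.40 around 0.16 in shYthdf2_WT against shYthdf2_EV.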

Other observations

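Germline genes that promoter methylation keeps silent in somatic cells serve as a readout of DNA methylation in other settings. Of 12 such genes tested, 6 were higher and 6 lower in shYthdf2_EV than in shscr_EV, with a median log2 ratio of -0.00, and 0 passed 1.5-fold, beside 26.7% of all tested and 10.2% of well-counted genes. In shYthdf2_Mut against shYthdf2_WT the median was 0.23, with 9 genes higher and 3 lower, beside a median of -0.01 over all tested genes. Ratios in this comparison also varied with GC content (Spearman correlation -0.50 across 10512 genes), whose part in that median was not tested. Brdt, a testis bromodomain gene, was at 0.97 and Sycp3, a synaptonemal complex gene, at -0.88 in that comparison. These 2 genes were chosen after their values were seen.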
